A study of Mus musculus with 8 samples.

Results

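Mitochondrial oxidative phosphorylation is carried out by 5 protein complexes of the inner mitochondrial membrane. Complexes I and II take electrons from NADH and succinate, complexes III and IV pass them on to oxygen, and complex V (ATP synthase) uses the proton gradient that builds up on the way to make ATP. Most of their subunits are encoded in the nucleus, and pluripotent stem cells, which lean strongly on glycolysis, still transcribe them at high levels. The subunits described here are all transcripts of the deposited table whose symbol begins with Nduf followed by a, b, c, s or v and a digit, with Uqcr, with Cox4 to Cox8 and a letter, or with Atp5, together with Sdha to Sdhd and Cyc1. Assembly factors named Ndufaf were left out. The rule, which uses names only, found 82 of 13558 transcripts: 35 of complex I, 4 of complex II, 9 of complex III, 11 of complex IV, 15 of complex V, and 8 isoforms of other tissues or factors that share such a name. Ndufa4 was counted with complex IV, of which it is a subunit. Subunits encoded by mitochondrial DNA were not analysed here, and Ndufab1, a complex I subunit that the rule does not match, is given only with the other genes of the pathway.

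The data are normalized read counts from mRNA-seq of C57BL/6 male mouse embryonic stem (mES) cells, 4 libraries labelled WT and 4 labelled KO. WT cells were Trimfl/fl, that is, homozygous for a Trim71 allele with loxP sites around its last exon, and KO cells were Trim-/- cells made from them by 500 nM 4-hydroxytamoxifen (4-OHT) for 2 days, followed by at least 7 days of culture. These are the dose and times of the labels, and the study's methods give a lower dose and a shorter culture. Per those methods all cells also carried a Cre recombinase driven from the Rosa26 locus that 4-OHT switches on, so 4-OHT exposure and loss of Trim71 cannot be told apart in these libraries. All cells grew in serum with LIF and were sorted for the surface antigen SSEA-1. A pair of clones was used: KO replicates 1 to 3 and WT replicates 2 and 3 came from clone E3, and KO replicate 4 and WT replicates 1 and 4 from clone 1. The labels also give a day, on which KO and WT replicates 2 (day 3), 3 (day 4) and 4 (day 5) coincide, while KO replicate 1 was of day 2 and WT replicate 1 of day 1. Nothing says whether replicates came from separate cultures, so p-values measure the spread between these samples, which may be technical.

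Whole reads recovered from the values came to 6469349 to 24213416 per library, with WT replicate 2 the shallowest and WT replicate 3 the deepest. Trim71, the targeted gene, lay between 247 and 793 normalized reads in the KO libraries and between 1988 and 2782 in the WT libraries, a log2 difference of -2.39 with a standard error of 0.35. Pluripotency markers Pou5f1, Nanog, Sox2, Zfp42, Esrrb, Dppa5a and Tdgf1 summed to 58559 to 84831 normalized reads in every library. Endoderm markers (Gata6, Gata4, Sox17, Sox7, Dab2 and Foxa2, all 6 in the table) summed to 259 to 570 in KO and 68 to 422 in WT libraries, neural markers (6 of 6 in the table) to 873 to 1155 and 1124 to 1796, muscle and heart markers (3 of 7) to 444 to 532 and 454 to 599, and fibroblast markers (4 of 8) to 97 to 178 and 75 to 155. Of these markers Nes and Neurog1 were lower in KO at an unadjusted p under 0.05 (log2 differences of -0.50 and -0.63 by limma), and of the pluripotency, endoderm, muscle and fibroblast markers 0 passed in either direction. In a fit of the 3 same-day pairs with day as a block, the fibroblast marker Pdgfrb and the endoderm marker Dab2 also passed as lower (log2 differences of -0.73 and -0.75, limma unadjusted p = 0.00242 and 0.0288). These 2 do not stand for their lists. Over all 8 libraries 5 of the 6 endoderm markers were above 0 (median log2 difference 1.33), and with the block the endoderm median was 0.92. The size of these differences depends on WT values at or near 1, the lowest value kept. In WT replicate 1 Gata6, Sox17 and Foxa2 stood at 1 and Gata4 at 1.72, and Foxa2 was at 1 in WT replicate 4 too. In clone E3 the KO and WT values of all 6 endoderm markers overlapped. The median of the 4 fibroblast markers with the block was -0.03, and Pdgfrb was scarce, with means of 7.22 in KO and 11.3 in WT. The part of such cells in the results below was not tested. Because the RNA came from bulk cells, fewer cells of a type and less RNA per cell cannot be told apart.

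Transcripts of the oxidative phosphorylation subunits were, as a list, slightly more abundant in KO than in WT mES cells. The log2 difference, KO minus WT, was above 0 for 78 of 82 members and for 50% of all transcripts. Its median was 0.22 over the members and 0.00 over all transcripts, and 69 members had a difference between 0 and 0.4. By limma with genotype and clone as terms, 14 members (17.1%) were higher in KO at an unadjusted p under 0.05, against 4.62% of all transcripts (627 of 13558). Only 1 member (1.22%) was lower, against 4.46% of all transcripts (605). Adjusted over all transcripts, 0 members and 0 transcripts passed 0.05, and the smallest adjusted p of a member was 0.388, so the calls below are unadjusted. When voom was run on the recovered reads over same-day pairs, 3 transcripts passed, of which 0 were members. In 20 members (24.4%) every KO library lay above every WT library, which held for 5.48% of all transcripts, and in 2 members (Sdha and Cox7a1) every WT library lay above every KO library, which held for 4.62%. With the authors' correction for clone undone, 14 members had every KO library above every WT library, against 3.55% of all transcripts. For a member without overlap the exact two-sided permutation p over the 70 assignments of the libraries is 0.0286, the smallest they can give, but those assignments ignore clone and day and so treat the libraries as more exchangeable than they are.

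Libraries of the same day could be set against each other within a clone. KO lay above WT in 67 members on day 3, 70 on day 4 and 66 on day 5, with median log2 differences of 0.18, 0.25 and 0.20, while 48.6%, 50.6% and 49.6% of all transcripts had KO above WT. On all 3 days KO was higher in 49 members (59.8%) against 24.6% of all transcripts. With day as a block, 22 members were higher at an unadjusted p under 0.05, against 9.92% of all transcripts, and 13 of the 14 members called above were among them (not Ndufb11). In clone E3 alone the members' median difference was 0.21 and in clone 1 it was 0.17, with 78 and 67 members above 0. The difference between clones, tested as an interaction in limma, passed an unadjusted p of 0.05 in 0 members and 2.59% of all transcripts, and the smallest unadjusted p of a member was 0.0797. The count of 14 fell to 4 without KO replicate 4 (clone 1 then has WT libraries only), to 6 without WT replicate 1 and to 8 without WT replicate 2 or WT replicate 4. The share of all transcripts called higher was then 1.56%, 3.23%, 4.1% and 3.5%, in that order, against 4.62% with all libraries. The members' median stayed between 0.19 and 0.24 when any 1 library was left out.

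**Figure D1:**
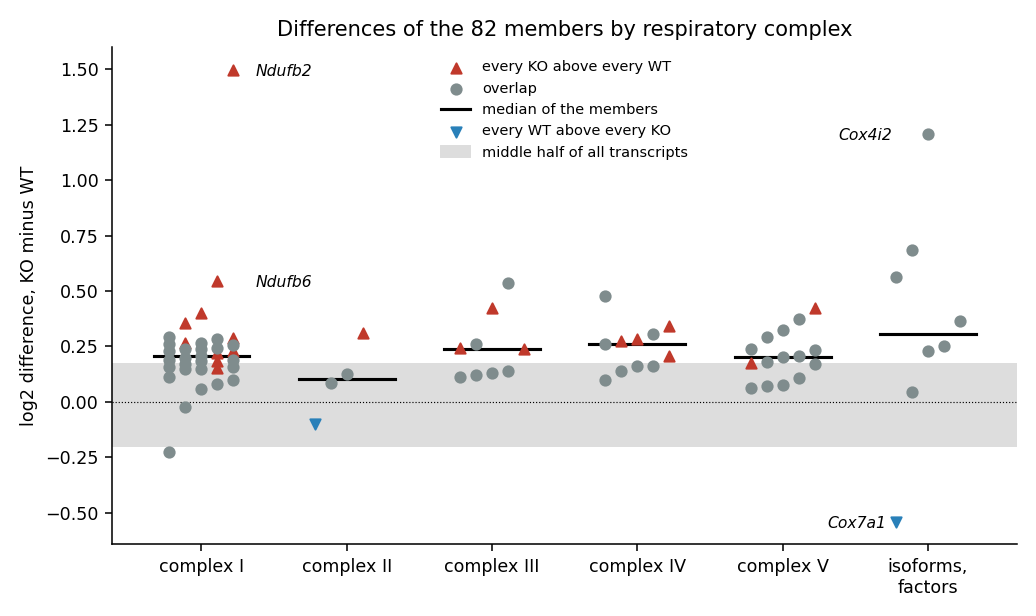
Log2 difference (KO minus WT, log2 of normalized reads + 1) of each of the 82 members, by complex. Red triangles are members with every KO library above every WT library, blue triangles those with every WT library above every KO library, black bars the medians of the members, and the grey band the range from the 25th to the 75th percentile of all transcripts (-0.20 to 0.17). Medians of complexes I to V lie between 0.11 and 0.26, and Ndufb2 at 1.50 and Cox7a1 at -0.54 stand at the ends.

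Across the whole table the difference between KO and WT changed with transcript length, and the members are short. Their median length was 769 bases against 2850 over all transcripts, and 52 of 82 were shorter than 1000 bases against 6.85% of all. Among the 870 other transcripts shorter than 1000 bases, the median difference was 0.13, 9.54% were called higher and 11.1% had every KO library above every WT library. Among the 52 short members the median was 0.25, with 11 called and 14 not overlapping. In the 30 members of 1000 bases or more it was 0.16, with 3 called, beside 4.62% of all transcripts. The share among other transcripts of that length is not given. Outside the members the median fell from 0.19 in transcripts of up to 600 bases to -0.17 in those longer than 5000 bases. In each of the 7 length bins that held members their median lay above that of the other transcripts, by values of 0.26 against 0.19 up to 600 bases, 0.19 against 0.10 from 1000 to 1500 bases and 0.13 against 0.07 from 1500 to 2000 bases. When the trend of each library with GC content and length was removed, the members' median was 0.09, with 69 above 0. In that fit 5 members (6.1%) were higher at an unadjusted p under 0.05, against 3.95% of all transcripts: Ndufb2, Ndufb6, Ndufa3, Atp5h and Cox7b2. With both this removal and the day block the median was 0.10 and 14 members (17.1%) were called, against 6.49% of all transcripts.

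**Figure D2:**
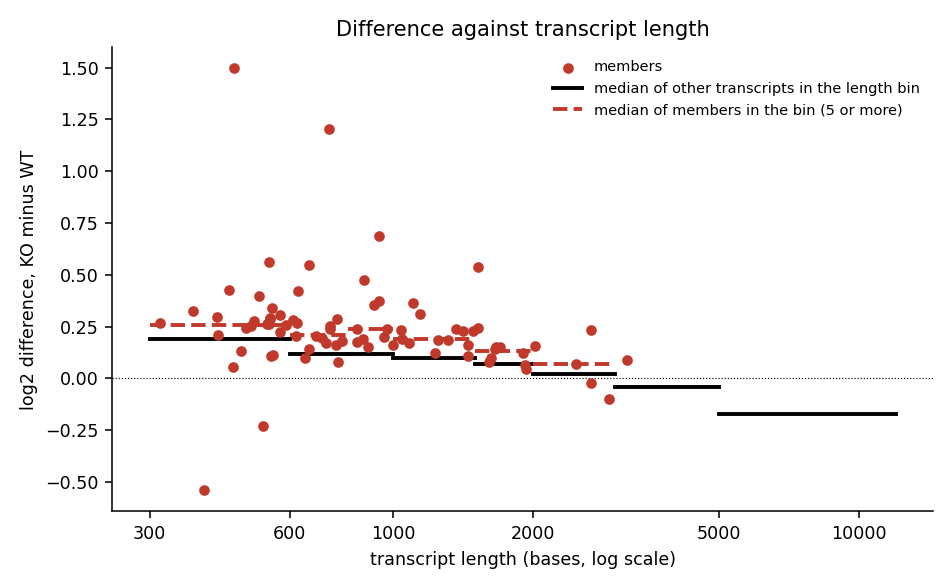
Log2 difference (KO minus WT) of each member against the length of its transcript in bases (log scale), with the median of all other transcripts in each length bin (black) and of the members (dashed red, bins with 5 or more members). Other transcripts fall from 0.19 in the shortest bin to -0.17 in the longest, and the dashed lines lie above the black ones in every bin drawn.

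Seen library by library, the members' median relative to the WT mean was 0.26, 0.12, 0.26 and 0.18 (log2) in the KO libraries and 0.01, -0.05, 0.03 and 0.01 in the WT libraries, in replicate order. All 4 KO libraries lay above all 4 WT libraries on this scale. Other transcripts shorter than 1000 bases had medians of 0.22, 0.11, 0.10 and 0.11 in KO and 0.02, -0.01, -0.01 and 0.04 in WT. With the GC and length trend removed, the members' medians were 0.07, 0.03, 0.10 and 0.14 in KO and 0.00, -0.04, 0.07 and -0.01 in WT, and the groups overlapped. Members held 1.29% to 1.58% of all normalized reads in KO libraries and 1.16% to 1.31% in WT libraries.

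**Figure D3:**
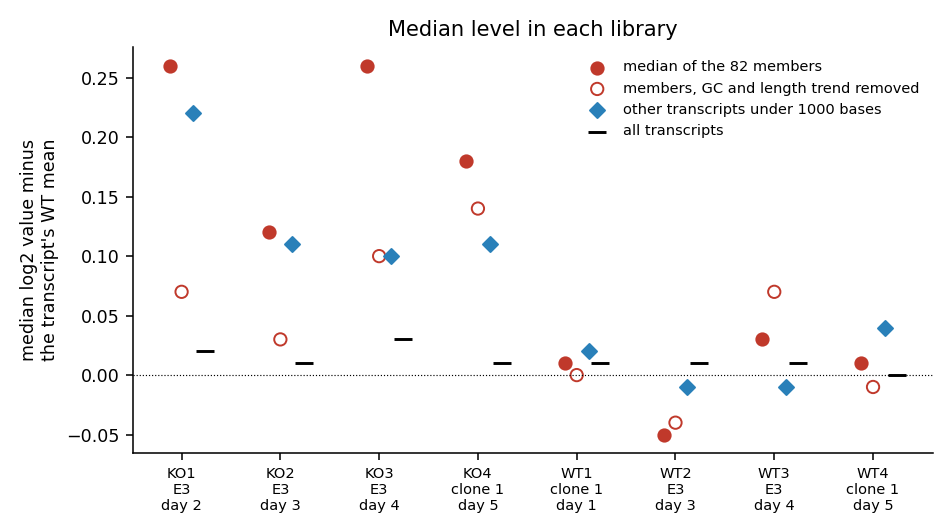
Median log2 value, relative to each transcript's WT mean, in the 8 libraries (labelled with clone and day), for the 82 members (filled red), the members with the GC and length trend removed (open red), other transcripts shorter than 1000 bases (blue) and all transcripts (black dashes). Filled red points lie between 0.12 and 0.26 in KO and between -0.05 and 0.03 in WT, and the open red points of the groups overlap.

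Complex I, the NADH dehydrogenase, held the largest single difference. Ndufb2, a small accessory subunit of its membrane arm, was at 296, 145, 193 and 261 normalized reads in the KO libraries (in replicate order here and below) and at 59.6, 85.4, 102 and 53.3 in the WT libraries. All 4 KO libraries lay above the highest WT library, and they spread widely among themselves. Its mean was 224 ± 67.9 in KO and 75.02 ± 22.6 in WT (SD, n = 4), a log2 difference of 1.50 with a standard error of 0.30 (limma unadjusted p = 0.00143, adjusted p = 0.388). The difference was 1.11 in clone E3 and 2.19 in clone 1, where WT values were lowest. These values rest on 40 to 305 recovered reads per library, and 8.57% of the exon bases of Ndufb2 overlap annotated exons of other genes, whose reads cannot be told apart without strand. Ndufb2 lies at chr6:39592565-39599843 (mm10).

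Ndufb6, another accessory subunit of that arm (chr4:40270591-40279421), had KO values of 1330, 1101, 1223 and 1330 and WT values of 767, 899, 882 and 846, without overlap and with a log2 difference of 0.55 (standard error 0.12, limma unadjusted p = 0.00267). Annotated exons of Smim27 overlap 39% of its exon bases, so its reads are uncertain to that extent. Ndufa3 stood at 754, 696, 731 and 720 in KO and 526, 536, 558 and 580 in WT. The spread within each group was narrow, with an SD of 24.06 in KO and 23.97 in WT (n = 4) against means of 725 and 550.0. Its log2 difference was 0.40 with a standard error of 0.10 (limma unadjusted p = 0.00528). Ndufb2, Ndufb6 and Ndufa3 kept a limma unadjusted p under 0.05 in every alternative fit and without each library in turn.

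Ndufa11, Ndufb7 and Ndufb11, also accessory subunits, completed the 6 members of complex I that were called, with log2 differences of 0.29, 0.27 and 0.35 and no overlap between groups. Ndufa11 was at 1145, 1127, 1172 and 1112 in KO and 933, 893, 946 and 959 in WT. Its largest limma unadjusted p without 1 library was 0.0673. For Ndufb7 that p was 0.106 and for Ndufb11 0.132. The calls of Ndufa11 and Ndufb7 were lost with the GC and length trend removed, at log2 differences of 0.06 and 0.02, whereas the value for Ndufb11 was then 0.23 with a limma unadjusted p of 0.0713. With day as a block Ndufb11 was not called either (log2 difference 0.30, limma unadjusted p = 0.0727). None of these 3 was called without KO replicate 4. Ndufa11 also lost its call without WT replicate 2, Ndufb11 without WT replicate 1 or 3, and Ndufb7 without KO replicate 1 or any WT replicate. Of the exon bases of Ndufb11, 12.9% overlap Rbm10.

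The 7 core subunits of complex I carry the flavin and the iron-sulphur clusters that move electrons from NADH to ubiquinone. Of these, 0 were called higher at an unadjusted p under 0.05 in the limma fit, and of the 28 accessory subunits 6 were (21.4%), beside 4.62% of all transcripts. The medians were 0.15 over the core subunits and 0.23 over the accessory subunits, and median transcript lengths were 1312 and 694 bases. With the GC and length trend removed the medians were 0.03 and 0.09, with 0 and 3 called. Whether core and accessory subunits differ was not tested. Ndufv1 and Ndufv2, which together hold the NADH-binding end, had every KO library above every WT library. Ndufv1 was at 2207, 2243, 2548 and 2217 in KO and 2146, 2030, 2030 and 2088 in WT, with a log2 difference of 0.15 (limma unadjusted p = 0.200). Ndufv2 had a difference of 0.19, Ndufs7 of 0.28, Ndufs3 of 0.19, Ndufs8 of 0.15 and Ndufs1 of -0.02. With day as a block Ndufs7 and Ndufs3 were called (limma unadjusted p = 0.0187 and 0.0487). The core count thus moved from 0 to 2 and that of the accessory subunits from 6 to 9. The share of all transcripts called higher moved from 4.62% to 9.92%. With the GC and length trend removed Ndufs7 differed by 0.04 and Ndufs3 by 0.06. A copy elsewhere in the annotation covers 75.7% of the Ndufs3 transcript, and 8.41% of its exon bases overlap Kbtbd4. Over all of complex I, 33 of 35 members lay above 0, beside 50% of all transcripts. In 10 of them every KO library lay above every WT library (28.6%, beside 5.48% of all transcripts). With the block 11 were called higher, beside 9.92% of all transcripts.

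A further 2 accessory subunits without overlap were not called. Ndufa2 stood at 993 to 1053 in KO and 852 to 894 in WT, with a log2 difference of 0.22 (limma unadjusted p = 0.0546), and 11.5% of its exon bases overlap Tmco6. Ndufb8 stood at 1362 to 1767 and 1229 to 1353, with a difference of 0.23, and was called with day as a block (limma unadjusted p = 0.0431). Ndufa7, the complex I transcript with the most reads per kilobase (4236 in WT), had a difference of 0.24 with overlapping groups. Ndufs5 was the least abundant subunit at 32.2 normalized reads per kilobase in WT, with a difference of -0.23 and a standard error of 0.49, and 60.8% of its transcript matched a copy elsewhere in the annotation at 97% identity or more.

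Complex II, succinate dehydrogenase, also serves in the citric acid cycle, and its 4 subunits did not all lie on the same side of 0. Sdhb, the iron-sulphur subunit, was at 2026, 1900, 2174 and 2019 normalized reads in KO and 1646, 1471, 1793 and 1641 in WT, without overlap. Its log2 difference was 0.31 (standard error 0.12, limma unadjusted p = 0.0295), and without KO replicate 4 or WT replicates 1, 2 or 4 in turn it was not called, with a p of up to 0.11. Sdha, the flavoprotein to which Sdhb is bound, was at 5288, 5148, 5119 and 5227 in KO and at 5716, 5378, 5809 and 5408 in WT. Every KO library thus lay below every WT library, by a log2 difference of -0.10 that limma did not call (standard error 0.10, unadjusted p = 0.336). The membrane anchors Sdhc and Sdhd differed by 0.09 and 0.12 with overlapping groups. In WT cells Sdha and Sdhd stood at 1923 and 1945 normalized reads per kilobase, the highest of the complex, against 1434 for Sdhb and 570 for Sdhc.

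In complex III, the cytochrome bc1 complex, all 9 members lay above 0, with a median log2 difference of 0.24. Uqcr11, a small subunit, was at 269, 365, 325 and 348 normalized reads in KO and 233, 254, 250 and 229 in WT, and its groups did not overlap. Uqcrq, another small subunit, was at 1913, 2659, 2940 and 3061 in KO and 1608, 2213, 1791 and 1561 in WT, where KO replicate 1 fell below WT replicate 2. Their log2 differences were 0.42 and 0.54, with standard errors of 0.14 and 0.20 and limma unadjusted p-values of 0.0159 and 0.0324. Uqcr11 was called without any library other than KO replicate 4 (0.108). Uqcrq lost its call without any of 6 libraries in turn, KO replicates 2 to 4 and WT replicates 1, 3 and 4, with a p of up to 0.227. The subunits that carry redox centres, Uqcrfs1 (the Rieske protein) and Cyc1 (cytochrome c1), had every KO library above every WT library. Uqcrfs1 ranged from 1526 to 1796 in KO and from 1329 to 1444 in WT, and Cyc1 from 3317 to 4310 and from 2970 to 3316, with log2 differences of 0.24 each that limma did not call (unadjusted p = 0.0642 and 0.0896). Cyc1 was called with day as a block (0.0277). Uqcr10 had the most reads per kilobase of the complex (4526 in WT) and a difference of 0.13.

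Complex IV, cytochrome c oxidase, had a median difference of 0.26, with all 11 members above 0. Of them 3 were called (27.3%, beside 4.62% of all transcripts) and 4 did not overlap (36.4%, beside 5.48%). Cox8a was at 2391, 2420, 2894 and 2695 normalized reads in KO and 2008, 1926, 2264 and 1992 in WT, a log2 difference of 0.34 with a standard error of 0.12 (limma unadjusted p = 0.0262). Cox6a1 and Cox5b differed by 0.31 and 0.48 with limma unadjusted p-values of 0.0472 and 0.0449. In both, the groups overlapped because KO replicate 1 lay within the WT range: Cox6a1 had 2186 there against up to 2198 in WT, and Cox5b had 141 against up to 154. All 3 calls were lost without KO replicate 4, WT replicate 1, WT replicate 2 or WT replicate 4, and those of Cox6a1 and Cox5b also without KO replicate 2 or 3. The largest p in such a fit was 0.129 for Cox8a, 0.166 for Cox6a1 and 0.155 for Cox5b. Cox6b1, Cox6c and Ndufa4 had non-overlapping groups and differences of 0.21, 0.28 and 0.28. Cox6b1 shows how narrow the WT group was, at 2059, 2088, 2087 and 2113, against 2697, 2182, 2361 and 2416 in KO. Cox4i1, the most abundant per kilobase (7766 in WT), differed by 0.16 with overlap. With day as a block the median of the complex was 0.17, below the 0.20 of complex III and the 0.19 of complex I. With the GC and length trend removed it was 0.10, below the 0.17 of complex III, and 0 of the 11 were called, with Cox8a at 0.10, Cox6a1 at 0.07 and Cox5b at 0.41. Cox5b also lost its call with voom on the recovered reads (limma unadjusted p = 0.0684) and on untransformed values (0.062).

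ATP synthase (complex V) contained the most abundant members. Of its 15 members 1 was called higher (6.67%, beside 4.62% of all transcripts). In 2 every KO library lay above every WT library (13.3%, beside 5.48%). Atp5b, the catalytic beta subunit of the F1 head, stood at 16280 normalized reads per kilobase in WT and differed by 0.06, with values of 30945 to 36842 in KO and 29961 to 32198 in WT. Atp5a1, the alpha subunit, differed by 0.07. Of the 5 F1 subunits 0 were called by limma and 0 had non-overlapping groups, and their median was 0.11. Of the 10 subunits of the membrane part and the peripheral stalk, 1 was called and 2 did not overlap, and their median was 0.22. The call was Atp5h, subunit d of the peripheral stalk, at 404, 405, 353 and 356 in KO and 294, 298, 247 and 297 in WT. Its log2 difference was 0.42 (standard error 0.12, limma unadjusted p = 0.0107), and it stayed called without each library in turn, with a largest p of 0.0411. A single copy elsewhere in the annotation covers 77.6% of the Atp5h transcript, so reads may be shared with it. Atp5o, the subunit that ties the stalk to the head, lay at 1649 to 1822 in KO and 1470 to 1566 in WT with a difference of 0.17, and other genes overlap 40.1% of its exon bases. With day as a block Atp5d, the delta subunit and 1 of the 5 F1 subunits, was called as well (log2 difference 0.51, limma unadjusted p = 0.00494). The F1 count thus moved from 0 to 1, and that of the other 10 subunits stayed at 1. The share of all transcripts called higher with the block was 9.92%.

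**Figure D4:**
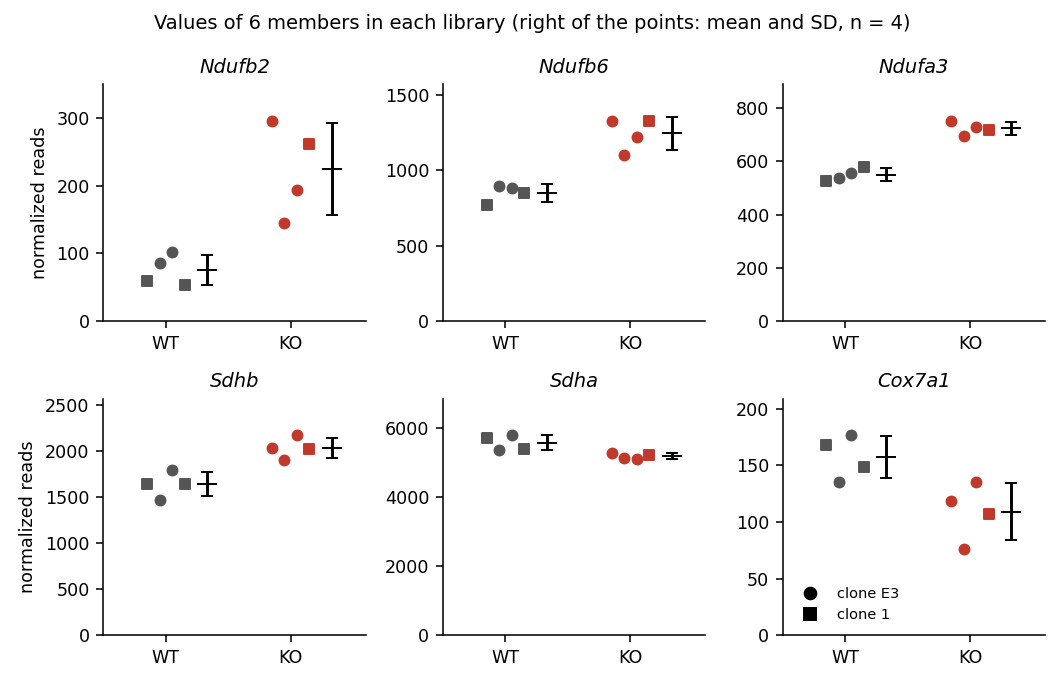
Normalized reads of 6 members in each of the 4 WT (grey) and 4 KO (red) libraries, circles for clone E3 and squares for clone 1, with the mean and SD to the right of each group; each axis starts at 0. In Ndufb2, Ndufb6, Ndufa3 and Sdhb every KO library lies above every WT library, and in Sdha and Cox7a1 every one lies below.

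Among the isoforms of other tissues 1 was lower in KO. Cox7a1, the heart and skeletal muscle form of a complex IV subunit, was at 119, 76.1, 135 and 107 normalized reads in KO and 168, 135, 177 and 149 in WT. The highest KO library lay just under the lowest WT library, both near 135. It fell by 0.54 on the log2 scale (standard error 0.21, limma unadjusted p = 0.0345), by 0.53 in clone E3 and by 0.55 in clone 1, and by 0.75 with the GC and length trend removed (0.00462). It was not called without KO replicate 4 or WT replicates 1, 3 or 4 (p up to 0.119). Its ubiquitous counterpart Cox7a2 had a difference of 0.14. Cox7a2l, an assembly factor of respiratory supercomplexes despite its name, was called higher at 0.36 (limma unadjusted p = 0.0396), with 1838 to 2365 in KO and 1455 to 1858 in WT, and lost the call without KO replicate 1, 3 or 4 or WT replicate 1 or 2 (p up to 0.145). Cox6b2, the testis form of Cox6b1, ranged from 318 to 708 in KO and from 178 to 738 in WT.

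The remaining isoforms were scarce. Cox4i2, the oxygen-responsive form of Cox4i1, stood at 16.1, 16.9, 16.5 and 24.3 in KO and 1.22, 6.33, 17.4 and 10.7 in WT and rested on 0 to 25 recovered reads. Cox7b2 was at 13.6 ± 6.86 in KO and 8.12 ± 1.32 in WT (SD, n = 4), and Ndufa4l2, a hypoxia-induced relative of Ndufa4, at 14.6 to 63.2 and 10.4 to 35.4. The groups of all 3 overlapped, and their log2 differences of 1.21, 0.56 and 0.69 did not pass (limma unadjusted p = 0.0917, 0.225 and 0.234). Cox4i2 passed with voom on the recovered reads (log2 difference 1.57, unadjusted p = 0.0456) and without WT replicate 3 (1.75, limma, 0.0308). Cox7b2 passed with the GC and length trend removed (0.78, limma, 0.00336), also with the block, and without KO replicate 3 (0.92, limma, 0.00426). Atp5s and Atp5sl, which share the name but are not subunits of ATP synthase, differed by 0.23 and 0.05.

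Some members have copies of their sequence elsewhere in the genome, and reads may be shared with them. For 16 of the 82 members at least 100 bases matched another annotated gene at 97% identity or more, and their median level in WT was 454 normalized reads per kilobase, against 1535 for the 59 other subunits without such copies. The part of copies in these levels was not tested. The median differences were 0.24 and 0.20. Of the 16, 4 were called higher, namely Atp5h, Uqcr11, Cox5b and Cox7a2l, beside 4.62% of all transcripts. Whether members with and without copies differ in their calls was not tested.

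Because most members lay above 0, the 250 bases before their annotated starts were read from RefSeq (GRCm38.p6). The table held 70 promoters of 65 members, and 12980 promoters of transcripts in the table served for comparison. Motif letters of nuclear respiratory factor 1 (NRF-1, GCATGCGC) occurred on either strand in 11.4% of the members' promoters (8) against 4.3%. Those of ETS factors such as GABP (CCGGAAG) occurred in 17.1% (12) against 12.9%, and those of YY1 (AAGATGGCG) in 1.43% (1) against 1.11%. GCATGCGC overlaps itself on the opposite strand, so both strands can match at 1 place. Members with and without the NRF-1 letters had median differences of 0.29 and 0.20, and those with and without the ETS letters 0.24 and 0.22. With the GC and length trend removed, the 8 members with NRF-1 letters differed by 0.04 (Ndufa8) to 0.21 (Atp5l). The median of all members was then 0.09. Whether members with and without a motif differ was not tested. Of the members called in complex I, Ndufa11 held NRF-1 letters, Ndufb7 and Ndufb6 held ETS letters, and Ndufb2, Ndufa3 and Ndufb11 held none of the 3 motifs. The promoters below belong to the member with the largest difference (chr6:39592315-39592564, plus strand), a member with NRF-1 letters (chr17:56717512-56717761, plus strand) and the member that was lower (chr7:30183921-30184170, plus strand), with motif letters in capitals.
Ndufb2: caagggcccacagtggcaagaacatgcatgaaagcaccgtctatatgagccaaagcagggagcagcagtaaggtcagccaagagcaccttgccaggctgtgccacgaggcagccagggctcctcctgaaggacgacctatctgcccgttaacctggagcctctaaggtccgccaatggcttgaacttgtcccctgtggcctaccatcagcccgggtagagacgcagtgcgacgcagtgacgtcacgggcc
Ndufa11: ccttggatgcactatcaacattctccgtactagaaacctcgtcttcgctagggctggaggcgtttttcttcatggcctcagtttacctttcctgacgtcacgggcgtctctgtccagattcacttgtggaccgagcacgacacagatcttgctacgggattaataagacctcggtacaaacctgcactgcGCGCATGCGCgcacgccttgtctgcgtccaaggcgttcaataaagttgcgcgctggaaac
Cox7a1: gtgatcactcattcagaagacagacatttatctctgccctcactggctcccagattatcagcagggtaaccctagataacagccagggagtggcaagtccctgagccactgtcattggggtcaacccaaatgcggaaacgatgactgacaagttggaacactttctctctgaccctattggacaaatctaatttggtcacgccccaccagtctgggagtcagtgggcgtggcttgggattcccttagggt
In Ndufa11 the NRF-1 letters begin 60 bases before the start on the opposite strand and 58 bases before it on the plus strand. The windows of Ndufb2 and Cox7a1 held none of the 3 motifs, and their GC contents were 60% and 51.2%.

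Other genes of the pathway were compared as lists chosen by function. Of 39 assembly factors 0 were called higher or lower, their median difference was 0.08, and 3 had every KO library above every WT library (7.69% against 5.48% of all transcripts). Of 6 carriers of electrons, adenine nucleotides and ions (Cycs, Slc25a4, Slc25a5 and Vdac1 to Vdac3) 0 were called, with a median of 0.09. Of 14 citric acid cycle enzymes 0 were called, with a median of 0.06. With the GC and length trend removed, the medians were 0.08 for the assembly factors, 0.08 for the carriers and 0.02 for the citric acid cycle enzymes. That of the members was then 0.09. In that fit 2 of the 39 assembly factors were called higher. Whether these lists differ from the members was not tested. Of 11 regulators of mitochondrial gene expression in the table, including Nrf1, Gabpa, Esrra, Tfam and Ppargc1b, 0 were called by limma, with a median of 0.00. Nrf1 differed by 0.12, Gabpa by 0.00 and Tfam by -0.07, and Esrra passed an unadjusted p of 0.05 only with day as a block (log2 difference 0.43, limma, 0.0112). Ndufab1, the acyl carrier protein of complex I, was low at a mean of 35.7 in KO and 18.2 in WT and was called higher at 0.96 (limma unadjusted p = 0.0154).

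Ribosomal protein transcripts, also shorter than most of the table, were set beside the members. Among 77 mitochondrial ribosomal proteins 5 were called higher (6.49%) and 13 had every KO library above every WT library (16.9%), with a median difference of 0.15 and a median length of 1226 bases. Mrpl33, Mrps34 and Mrpl53 led them at 0.55, 0.36 and 0.31. Among 81 cytosolic ribosomal proteins 11 were called higher (13.6%), 1 was called lower and 16 did not overlap (19.8%), with a median of 0.18 and a median length of 791 bases, and Rpl27, Rpl35 and Rpl37a led them at 0.51, 0.43 and 0.34. With the GC and length trend removed, the medians were 0.09 for both the oxidative phosphorylation members and the mitochondrial ribosomal proteins, and 0.07 for the cytosolic ones. Whether the 3 lists differ from each other was not tested.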

How the data were processed

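Processing is given here per the labels and the study's methods. The authors sequenced poly(A) mRNA (TruSeq RNA kit v2, which does not mark strand) and called bases with CASAVA 1.8. They aligned reads to mm10 with TopHat2 and Bowtie2 2.2.1 and counted reads per RefSeq transcript in Partek 6.6. The counts were normalized with DESeq2 and corrected for clone. The deposited values are a normalized signal in reads per transcript, not raw counts. The authors set values under 1 to 1 and dropped transcripts whose higher group mean was under 10. No per-sample column was left unused (0).

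Here log2(value + 1) was fitted with limma 3.58.1 in R 4.3.3 over all 13558 transcripts with genotype and clone as terms, with Benjamini-Hochberg adjustment over the table. Fold changes on this scale understate low transcripts. The additive clone correction was undone by finding, for every transcript, whole reads that give the values when scaled by library and shifted by clone, which gave a single solution for 13432 transcripts (99.1%) and 80 of 82 members (not Atp5a1 and Atp5b), and values rebuilt from these reads differed from the deposited ones by at most 0.000138 of their size. These reads were tested with voom and TMM scaling. Recovery and fit were tested on simulated data. Lengths, GC content, copies and exon overlaps came from GENCODE release 21 of mm10, and gene positions came from RefSeq. A length is the median over a gene's transcripts with a RefSeq match, and it was found for 13465 transcripts (99.3%). Trends were removed with natural splines of 5 degrees of freedom.

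Members, lists and tests were chosen with earlier results of these data known. Named were members with an unadjusted p under 0.05, members whose groups do not overlap, the most abundant per kilobase in each complex, isoforms of other tissues, the core subunits of complex I (1 is not reported here), complex II, and up to 3 called members of every other list. Same-day pairs share a clone as well as a day. With the correction undone, their deviations from the group means correlated across transcripts at 0.56, 0.65 and 0.50 (days 3, 4 and 5), so day was used as a block. As deposited, after the correction, the pair of day 5 gave -0.23. Alternatives were a pseudocount of 10, a mean of at least 50, no clone term, untransformed values, the correction undone, voom, the block, the trend removed and each library left out. Python 3.11.15 was used for the other steps.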

Additional observations from a re-analysis of the deposited data

Results flagged for a closer look

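In 6 of the 84 groups of 4 libraries examined (42 named members in KO and in WT), 1 library stood far from the other 3, where chance alone flags about 1 group in 20. Atp5b was at 36842 normalized reads in KO replicate 3 against 30945 to 31689 in the other KO libraries. Atp5h was at 247 in WT replicate 3 against 294 to 298 in the other WT libraries, and it stayed called higher in KO without that library. Atp5s was at 266 in KO replicate 1 against 164 to 179, and at 134 in WT replicate 2 against 173 to 179. Cox4i2 was at 24.3 in KO replicate 4 against 16.1 to 16.9. Ndufv1 was at 2548 in KO replicate 3 against 2207 to 2243. The causes were not tested.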

How the results depend on the processing

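The median difference of the members was 0.22 and lay between 0.19 and 0.22 with every planned or added alternative over all libraries or over the 6 libraries of days 3, 4 and 5, except with the GC and length trend removed, where it was 0.09, or 0.10 with day as replicate block as well. Leaving out single libraries gave 0.19 to 0.24. The count of members higher in KO was 14 and became 27 on untransformed values, 22 with day as replicate block, 30 when the block was fitted by voom, and 5 with the trend removed, while the share of all transcripts called higher went from 4.62% to 5.8%, 9.92%, 12.2% and 3.95%. It ranged from 4 to 17 without single libraries. With the block 13 of the 14 were called again, and with the trend removed 4 of them. The count of members lower was 1, became 2 on untransformed values and 0 over the 6 libraries with no replicate block (a fit added after the data were seen), and ranged from 0 to 1 without single libraries. Members with every KO library above every WT library numbered 20 (5.48% of all transcripts), 14 with the correction for clone undone or on the reads tested by voom (3.55% and 3.65%), 31 over those 6 libraries without the block (10.6%) and 6 with the trend removed (4.26%). With the block the count was taken over same-day pairs, where 49 members had KO above WT on all 3 days, beside 24.6% of all transcripts. It was 53 by voom and 31 with the trend removed. The range without single libraries was 21 to 29. Fewer libraries make non-overlap easier to reach. Shares over all transcripts are not given for the voom and trend-removed pairs or for single libraries left out. Those counts are thus not read as a result about the members. Of 792 values of the 42 named members under the alternatives, 664 kept direction and side of the threshold, 67 lost and 45 gained the call, and 16 changed sign, in 8 members. Of those called, Ndufa11 turned to -0.01 and Ndufb7 to -0.07 with the trend removed and the block. Of those not called, with the trend removed and then with the block as well, Atp5sl turned to -0.06 in both, Cox4i1 to -0.05 and -0.08, Ndufs8 to -0.04 and -0.02, Uqcr10 to -0.06 and -0.09, and Ndufs1 to 0.03 in both. Without single libraries Atp5sl ranged from -0.04 to 0.11, Cox6b2 from -0.31 (without WT replicate 2) to 0.77 and Ndufs1 from -0.08 to 0.05. The other causes of these changes were not tested.

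Depth limits Cox4i2, Cox7b2, Ndufa4l2, Ndufs5 and Ndufab1, whose means were under 50. Leaving out KO replicate 4 leaves clone 1 without a KO library, and 11 of the 15 called members lost their call there.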
